A study of Danio rerio with 2 samples.

Results

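Ribosomal protein S6 and the kinases named after it were read at the transcript level in whole zebrafish larvae with and without NOD1. On the zebrafish mTOR signaling PCR array, 4 of the 89 genes have a symbol that is *rps6* or starts with *rps6ka* or *rps6kb*: *rps6* itself, the RSK genes *rps6ka1* and *rps6ka2*, and the S6K gene *rps6kb1b*. The symbols alone decide which genes belong, but the family was taken up because the fall of *rps6ka2* was known. The array is a plate on which 84 pathway genes and 5 reference genes are each read in 1 well by quantitative PCR with SYBR Green. WT larvae, of the AB/TU background, were compared with *NOD1-1IS*-/- larvae, called NOD1-deficient in the records, which carry a 1 bp insertion in *NOD1* made with Cas9/gRNA and come from 1 homozygous line. Both groups were collected at 10 dpf without treatment, and each of the 3 replicates per genotype was a pool of 200 to 250 larvae, so a value is an average over all tissues of many animals. In such pools, fewer cells that express a gene and less RNA per cell cannot be told apart. The *nod1* transcript is not among the genes on the plate.

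S6 is a protein of the small ribosomal subunit and the classical substrate by which signaling to the translation machinery is followed. S6 kinases (S6K) are switched on by mTORC1 and PDK1 when nutrients and insulin are plentiful, and they phosphorylate serines in the tail of S6. The RSK kinases are switched on by ERK and PDK1 downstream of growth factors, and they phosphorylate S6 as well as other substrates. The array measures the amount of their transcripts, and it does not measure phosphorylation or kinase activity.

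The transcript of *rps6ka2* was lower in *NOD1-1IS*-/- larvae, and none of the other 3 genes passed the test. Relative to the reference genes *hprt1*, *nono* and *rpl13a*, the level of *rps6ka2* fell 2.39-fold. The level of *rps6kb1b* was 1.25-fold lower without passing the threshold, that of *rps6ka1* was 1.13-fold higher without passing it, and that of *rps6* had the same mean in both genotypes to within 0.01 on the log2 scale. Within the same replicates and without any reference gene, *rps6ka2* also fell relative to each of the other 3 genes. It was made the comparator because its fall was known, and it was likewise lower relative to 94.0% of the other 83 pathway genes.

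The reading of each well is the threshold cycle (Ct), the cycle at which the product becomes visible, and a Ct that is 1 cycle higher stands for 2 times less template if every cycle doubles the product. Ct values lay between 14.6 and 29.0 cycles in the 534 gene wells. A PCR array has no read depth, and with 1 well per gene on each plate the precision rests largely on the number of replicates. The positive PCR control came 0.21 cycles earlier on the *NOD1-1IS*-/- plates (mean Ct 19.5 ± 0.22 against 19.7 ± 0.0051, SD, n = 3), and the mean of the 3 reference genes came 0.30 cycles earlier. The control was uneven, at 19.25, 19.69 and 19.55 in *NOD1-1IS*-/- replicates 1, 2 and 3, against 19.71, 19.71 and 19.70 in WT. Replicate 1 thus stood furthest from the WT plates. The value ΔCt is the Ct of a gene minus that mean, a higher ΔCt means less transcript, and the log2 fold change is the WT mean of ΔCt minus the *NOD1-1IS*-/- mean.

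*rps6ka2* (XM_694860) encodes an RSK, a kinase downstream of ERK. Its ΔCt was 7.12, 6.59 and 6.53 in pools 1, 2 and 3 of *NOD1-1IS*-/- larvae, against 5.34, 5.65 and 5.49 in WT pools 1, 2 and 3. All 3 mutant pools had less *rps6ka2* than every WT pool, and replicate 1 had the least of all. The means were 6.75 ± 0.32 and 5.49 ± 0.15 cycles (SD, n = 3). Among the 84 pathway genes, this mutant SD was at place 10 from the largest. The mean Ct of *rps6ka2*, 25.6, was at place 75 from the earliest, with *rps6kb1b* at 61 and *rps6ka1* at 45. At places 73, 74, 76, 77 and 78, *prkaa2*, *ikbkb*, *irs1*, *fkbp1ab* and *pld2* also passed the threshold as lower. Their log2 fold changes were −0.51, −0.50, −0.90, −0.56 and −0.63. At places 72 and 79, *pik3cd* and *prkceb* did not pass. Whether a late Ct has a part in the fall was not tested. The log2 fold change was −1.26 (standard error 0.16, 95% interval −1.62 to −0.90, adjusted p = 3.37e-04, limma, adjusted by Benjamini-Hochberg over 84 genes). On raw Ct the gene moved against the control wells: it came at 26.38, 26.00 and 25.88 cycles in *NOD1-1IS*-/- and at 25.03, 25.15 and 25.22 in WT, 0.96 cycles later in the mutant, whereas the positive PCR control and the reference mean came earlier there. Without *NOD1-1IS*-/- replicate 1 the log2 fold change was −1.07 (adjusted p = 4.93e-05, limma).

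*rps6kb1b* (NM_213076) encodes an S6K, the kinase that mTORC1 activates. Its ΔCt was 4.65, 4.92 and 5.12 in pools 1, 2 and 3 of *NOD1-1IS*-/- larvae, against 4.61, 4.51 and 4.60 in WT pools 1, 2 and 3. The genotypes did not overlap, but mutant replicate 1 lay only just beyond the WT pools. The log2 fold change was −0.33 (standard error 0.13, 95% interval −0.62 to −0.03), and the call was not made across the plate (adjusted p = 0.0994, limma). Replicate 1, the pool with the least *rps6ka2*, was the mutant pool with the most *rps6kb1b*. Without it the log2 fold change of *rps6kb1b* was −0.45 and passed the threshold (adjusted p = 0.0298, limma). On raw Ct, where no reference gene enters but any offset between plates remains, the 2 genotypes differed by only 0.02 cycles and overlapped. On average the positive PCR control came 0.21 cycles earlier on the mutant plates, and it was earliest in replicate 1.

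*rps6ka1* (NM_001077775) encodes another RSK. Its ΔCt was 3.40, 3.33 and 3.34 in pools 1, 2 and 3 of *NOD1-1IS*-/- larvae, against 3.54, 3.62 and 3.44 in WT pools 1, 2 and 3. The mutant pools had more *rps6ka1* than every WT pool, by a narrow margin and opposite in direction to *rps6ka2*. The log2 fold change was 0.18 (standard error 0.10, 95% interval −0.05 to 0.40, adjusted p = 0.231, limma). The interval reaches 1.32-fold higher at its upper end and lies above every value in the interval of *rps6ka2*.

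*rps6* (NM_001003728), which encodes the substrate itself, had the lowest mean Ct of the 84 pathway genes. Its ΔCt was −4.62, −4.45 and −4.27 in pools 1, 2 and 3 of *NOD1-1IS*-/- larvae, against −4.30, −4.49 and −4.52 in WT pools 1, 2 and 3. The genotypes overlapped fully, with a mutant pool at each end of the range. The log2 fold change was 0.01 (standard error 0.12, 95% interval −0.27 to 0.28, adjusted p = 0.968, limma), an interval that covers levels from 0.83 to 1.22 times WT.

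**Figure D1:**
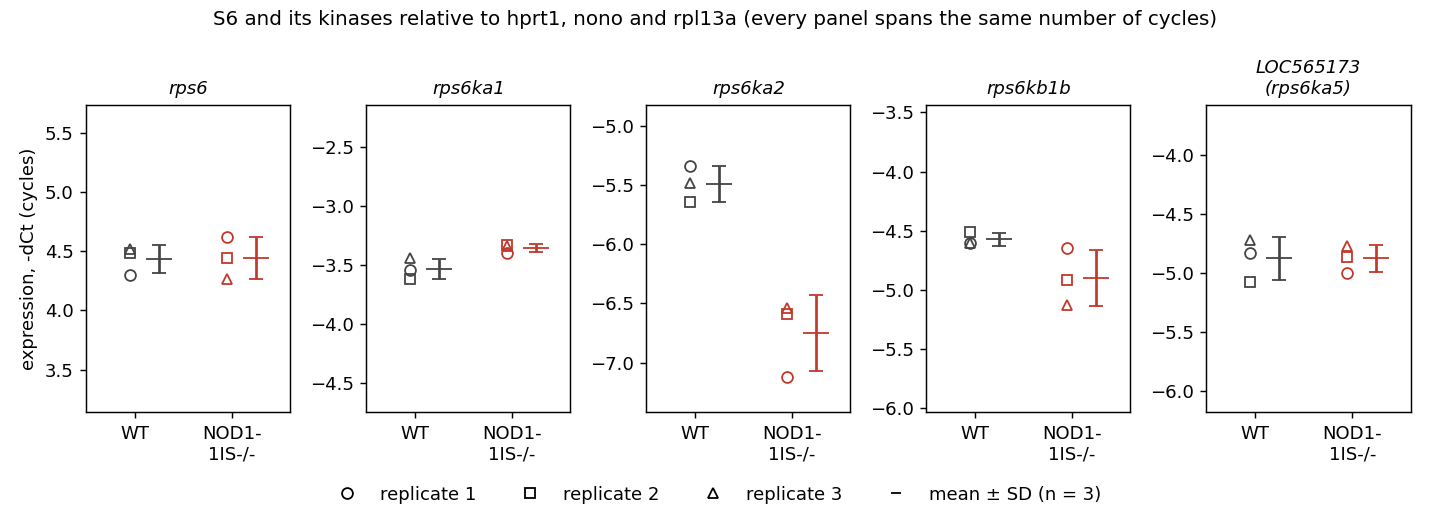
Expression as −ΔCt in cycles (y axis) of *rps6*, *rps6ka1*, *rps6ka2*, *rps6kb1b* and LOC565173 in WT and *NOD1-1IS*-/- larvae (x axis). Symbols are the replicates and bars the mean ± SD (n = 3). All panels span the same number of cycles, and only for *rps6ka2* are the genotypes more than 1 cycle apart on average.

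Of the 4 genes, 1 was lower and 0 were higher with an adjusted p under 0.05, while 19.0% of all pathway genes were lower and 3.57% were higher. The log2 fold changes of the 4 genes had a median of −0.16, against −0.11 over all 84. For 3 of the 4 genes no mutant pool lay within the WT range or the reverse, as was so for 38.1% of all pathway genes. For each of these 3 the two-sided exact permutation test gave p = 0.1, the smallest that 3 replicates against 3 allow. A change smaller than 1.5-fold was found for 3 of the 4 genes and for 74 of the 84. Ordered from the largest decrease, *rps6ka2* was at place 4, *rps6kb1b* at 22, *rps6* at 60 and *rps6ka1* at 72. Relative to the median change of the plate, the log2 fold changes were −1.15 for *rps6ka2*, −0.21 for *rps6kb1b*, 0.12 for *rps6* and 0.29 for *rps6ka1*.

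**Figure D2:**
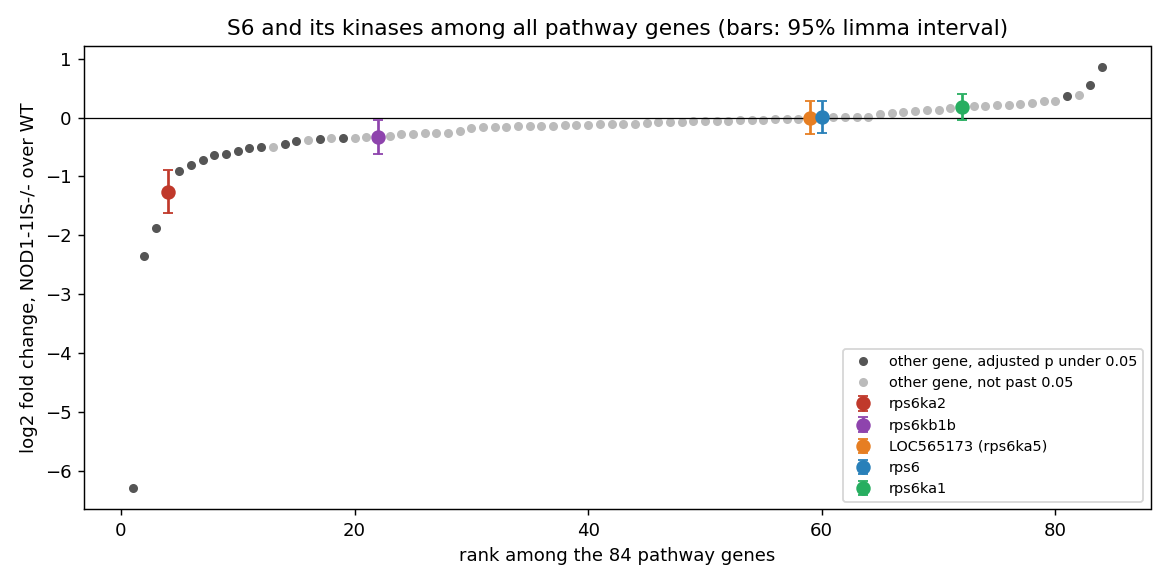
Log2 fold change of *NOD1-1IS*-/- over WT (y axis) for the 84 pathway genes by rank (x axis). Coloured points are *rps6*, its kinases and LOC565173 with 95% limma intervals, and dark grey points are other genes with an adjusted p under 0.05. *rps6ka2* is at rank 4, and the intervals of *rps6* and *rps6ka1* include 0.

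Whether the fall of *rps6ka2* was shared was asked of each gene directly, as the difference in Ct between *rps6ka2* and that gene within a replicate. Every reference gene cancels from this difference, as does any offset that is the same in all wells of a plate. An offset that depends on Ct would remain, and was not tested. The mean Ct was 25.6 for *rps6ka2* and 15.1 for *rps6*. The gene *rps6ka2* was taken as the comparator because its fall was known.

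Against *rps6ka1*, the other RSK, *rps6ka2* came later by 3.73, 3.26 and 3.20 cycles in *NOD1-1IS*-/- and by 1.80, 2.03 and 2.04 cycles in WT. The change in the ratio of the RSK transcripts was −1.44 on the log2 scale (95% interval −1.95 to −0.92), or 2.71-fold. Nothing overlapped here, with a gap of 1.16 cycles between the nearest pools of the genotypes. The ratio of these RSK transcripts thus changed by more than *rps6ka2* alone did relative to the reference genes. By construction the margin is the change of *rps6ka1* relative to the same reference genes, which did not pass the threshold.

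Against *rps6*, *rps6ka2* came later by 11.74, 11.04 and 10.80 cycles in *NOD1-1IS*-/- and by 9.64, 10.13 and 10.01 cycles in WT, a change of −1.27 (95% interval −1.78 to −0.75), or 2.41-fold. The nearest pools of the genotypes were 0.67 cycles apart. Against *rps6kb1b* the differences were 2.47, 1.67 and 1.41 cycles in *NOD1-1IS*-/- and 0.73, 1.14 and 0.88 in WT, a change of −0.93 (95% interval −1.45 to −0.42), or 1.91-fold. This was the smallest of the 3 changes, with a gap of 0.27 cycles, and without *NOD1-1IS*-/- replicate 1 it was −0.62.

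The adjusted p of these changes from limma was 5.22e-07 against *rps6ka1*, 7.06e-06 against *rps6* and 5.52e-04 against *rps6kb1b*. These p-values may be too small, since *rps6ka2* enters every difference and limma then gave all genes 1 common standard error (0.26). With *rps6ka1* as the common gene in place of *rps6ka2*, the standard error of the same ratio was 0.15 and the adjusted p was 4.92e-04. The two-sided exact permutation test gave p = 0.1 for each, which is its smallest value, and p = 0.167 after Benjamini-Hochberg adjustment over the 10 pairs formed by the 4 genes and LOC565173. The fit with *rps6ka2* as the common gene called it lower relative to 94.0% of the other 83 pathway genes and higher relative to 3.61%. Falls of this kind were thus found against nearly the whole plate. The genotypes did not overlap, in either direction, for 95.2%. The exceptions to the call as lower were *akt2l*, *ddit4* and *rragd*, which fell more than *rps6ka2*, and *irs1* and *prkab2*, which did not pass the test of the difference. Of these, only *ddit4* had pools of the genotypes that overlapped.

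**Figure D3:**
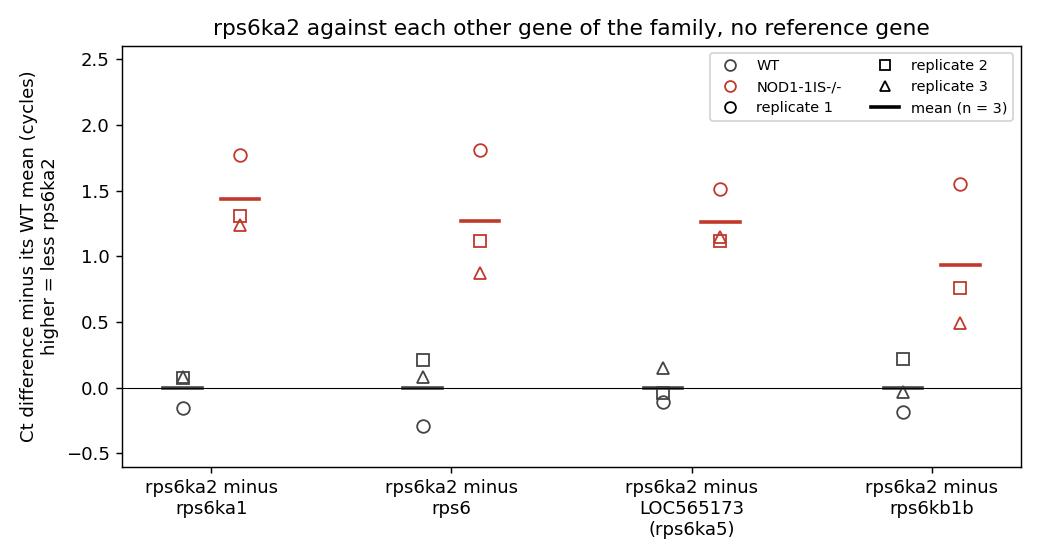
Ct of *rps6ka2* minus the Ct of each other gene in the same replicate, shown as cycles from the WT mean (y axis) for *rps6ka1*, *rps6*, LOC565173 and *rps6kb1b* (x axis). Symbols are replicates and lines are means (n = 3). The mutant pools lie above the WT pools in every comparison, and the gap is narrowest, 0.27 cycles, against *rps6kb1b*.

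Among the other 3 genes, the ratio of *rps6ka1* to *rps6kb1b* also shifted, in a pair taken up after the values were seen. The share of all pathway genes that shifted relative to *rps6ka1* is not given here, so the shift cannot be called particular to this pair. The Ct of *rps6ka1* was earlier than that of *rps6kb1b* by 1.26, 1.59 and 1.79 cycles in *NOD1-1IS*-/- and by 1.07, 0.89 and 1.16 cycles in WT. The genotypes were separated by 0.10 cycles, and the RSK transcript rose relative to the S6K transcript by 0.50 on the log2 scale (95% interval 0.16 to 0.85, adjusted p = 0.0283, limma over all genes relative to *rps6ka1*). The adjusted p from limma was 0.0398 with *rps6kb1b* as the common gene. With *rps6ka1* as the common gene, it missed the threshold without *NOD1-1IS*-/- replicate 2 or 3 or WT replicate 1 or 2, with values of 0.0622 to 0.0819. Relative to *rps6*, the change was 0.17 for *rps6ka1* (95% interval −0.13 to 0.47, adjusted p = 0.281, limma) and −0.33 for *rps6kb1b* (95% interval −0.71 to 0.04, adjusted p = 0.214, limma). These fits had *rps6ka1* and *rps6kb1b* in turn as the common gene, the latter with 1 standard error for all genes. With *rps6* as the common gene, the adjusted p from limma was 0.574 for *rps6ka1* and 0.163 for *rps6kb1b*. The pools of the genotypes nevertheless did not overlap for *rps6kb1b* minus *rps6*, with 9.27, 9.36 and 9.39 cycles in *NOD1-1IS*-/- and 8.91, 9.0 and 9.12 cycles in WT.

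A further kinase of the family is on the plate under a name that the symbols do not reveal. The row LOC565173, which the symbol rule leaves out, carries the accession XM_688458, which the RefSeq gene table of the assembly GRCz12tu names *rps6ka5*. In mammals RPS6KA5 is known as MSK1, a nuclear kinase downstream of ERK and p38 that acts on CREB and histone H3 rather than chiefly on S6. Its ΔCt was 5.0, 4.86 and 4.77 in pools 1, 2 and 3 of *NOD1-1IS*-/- larvae, against 4.84, 5.07 and 4.72 in WT pools 1, 2 and 3. The pools were intermixed, and a log2 fold change of 0.00 was found (standard error 0.12, 95% interval −0.27 to 0.27, adjusted p = 0.997, limma). The Ct of *rps6ka2* lay 2.12, 1.73 and 1.76 cycles after that of LOC565173 in *NOD1-1IS*-/- and 0.50, 0.57 and 0.76 cycles after it in WT. The ratio fell by 1.26 on the log2 scale, with a gap of 0.97 cycles between the genotypes. With this row counted, 1 of the 4 kinase genes so identified fell, beside 19.0% of the 84 pathway genes. The same table lists 9 genes named *rps6ka* or *rps6kb* in the genome, of which 4 were matched to rows of the plate, and it covers the accessions of 75 of the 89 genes on the plate.

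Profiles over the 6 replicates were compared as the root mean square difference of Ct, each gene centred on its own mean, which needs no reference gene. With 3 replicates per genotype this measure includes the difference between the genotypes, so for *rps6ka2* it largely restates its fall, and the values are a description. The profiles closest to *rps6ka2* were those of *irs1*, the insulin receptor substrate (0.26 cycles), *prkab2*, an AMPK subunit (0.28 cycles), and *pld2*, a phospholipase D (0.35 cycles). All 3 were lower in *NOD1-1IS*-/-, with log2 fold changes of −0.90, −0.81 and −0.63. Among the 83 other genes *rps6kb1b* was at place 24 (0.58 cycles), LOC565173 at 49, *rps6* at 61 and *rps6ka1* at 68 (0.74 cycles). Closest to *rps6* were *vegfc* and *vegfab*, both VEGF ligands, and *prkag1*, another AMPK subunit, each at 0.09 cycles. From *rps6*, *rps6ka1* was at place 32 (0.17 cycles), *rps6kb1b* at 38 (0.18 cycles), LOC565173 at 46 (0.21 cycles) and *rps6ka2* at 80 (0.71 cycles), so *rps6ka2* was the one far from the others.

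The choice of reference genes shifts all genes of a replicate alike, and it decides what can be said of the smaller changes. Under 12 normalizations the log2 fold change of *rps6ka2* was below 0 each time, from −1.46 with *nono* alone to −0.25 with *acta1b* alone, and it passed the threshold in 11. The exception was *acta1b* alone (adjusted p = 0.520, limma), a muscle actin gene whose own level was lower in *NOD1-1IS*-/- by 1.0 on the log2 scale. Its ΔCt was −1.74, −2.85 and −2.28 in *NOD1-1IS*-/- and −2.95, −3.52 and −3.41 in WT, and it was lowest in mutant replicate 1, the pool that also had the least *rps6ka2*; the part of this in the result for *rps6ka2* was not tested. For *rps6ka1* the value was above 0 in 11 of the 12 and passed the threshold as higher in 5, among them raw Ct and the mean of the pathway genes. For *rps6kb1b* it was below 0 in 10, and it passed as lower in 1, with *nono* alone. For *rps6* it was above 0 in 11 and passed as higher in 2, with *b2m* or *acta1b* alone. For LOC565173 it was above 0 in 10 and passed as higher in 3, with *b2m* alone, with *acta1b* alone and on raw Ct, where the pools of the genotypes did not overlap. The order of the 4 genes was the same under every normalization by construction. The main reference genes did not shift alike either. On raw Ct, *nono* came 0.51 cycles earlier in *NOD1-1IS*-/-, against 0.19 for *hprt1* and 0.21 for *rpl13a*. With *hprt1* and *rpl13a* only, the values were −1.16 for *rps6ka2*, −0.22 for *rps6kb1b*, 0.11 for *rps6* and 0.28 for *rps6ka1*. Of these, only *rps6ka2* passed the threshold.

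**Figure D4:**
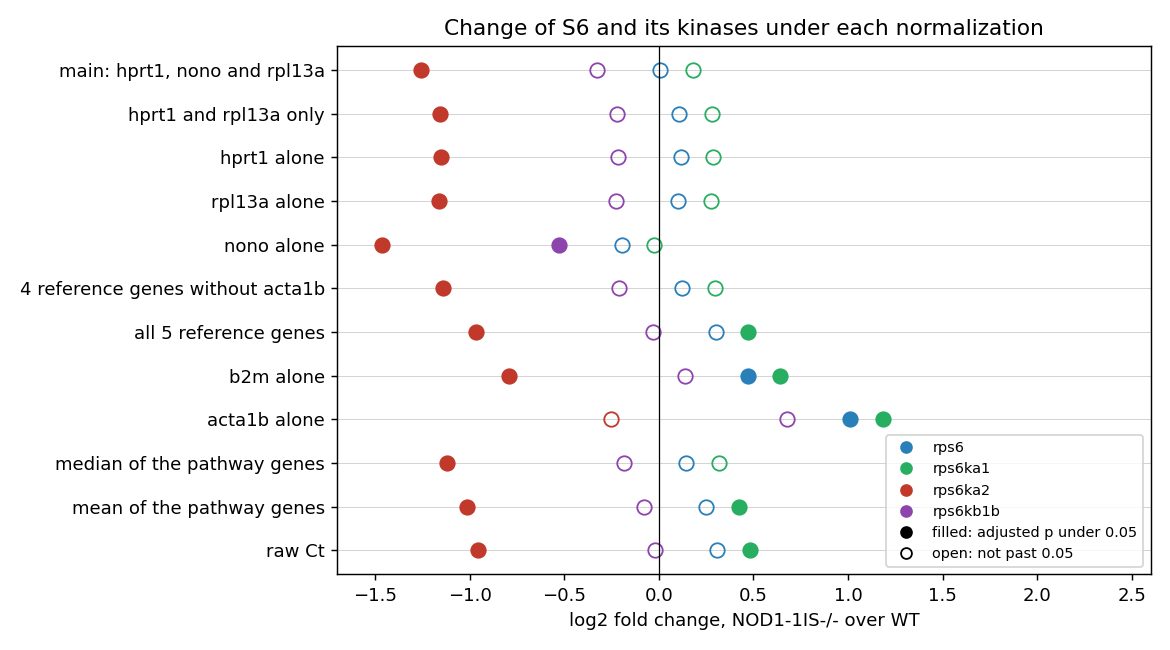
Log2 fold change of *NOD1-1IS*-/- over WT (x axis) of the 4 genes under each of 12 normalizations (y axis). Filled points have an adjusted p under 0.05. *rps6ka2* lies left of 0 throughout, from −1.46 to −0.25, while each of the other 3 genes has values on both sides of 0.

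Some other genes of the plate that act on S6 and its kinases, or that encode other substrates of these kinases, were put in short lists. They are given by counts. The list upstream of S6K was limited to *mtor*, *rptor*, *mlst8*, *akt1s1*, *deptor*, *rheb* and *pdpk1b*. It left out other mTOR pathway genes, among them *akt2l*, *rragd* and *ddit4*, which fell most on the plate (−6.30, −2.35 and −1.87). Of the 7 listed genes, 1 fell and 1 rose, and the median log2 fold change was −0.07. The lower one was *deptor*, an inhibitor of mTOR (log2 fold change −0.37, adjusted p = 0.0383, limma), and the higher one *mlst8*, a core subunit of the mTOR complexes (0.37, adjusted p = 0.0362, limma). Of 5 genes for other substrates of S6K or RSK, 1 was lower, *irs1* (−0.90, adjusted p = 4.29e-04, limma), which had the largest change of all the listed genes. Of 3 genes of PP2A, a phosphatase that acts on these kinases, 2 were lower: the catalytic subunit gene *ppp2ca* (−0.62, adjusted p = 0.0403, limma) and the regulatory subunit gene *ppp2r2bb* (−0.44, adjusted p = 0.0383, limma). The ΔCt of *ppp2ca* was spread more widely in the *NOD1-1IS*-/- pools (SD 0.45) than in the WT pools (SD 0.062, n = 3). Over the whole plate, 22.6% of genes passed in either direction. The calls of the listed genes were made with the main reference genes and are not given here under others. With all 5 reference genes the median log2 fold change of the plate moved up by 0.29. The genes called lower then went from 16 to 7, so the smaller of these changes depend on the reference genes.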

How the data were processed

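For each pool the authors made cDNA from 1000 ng of total RNA and amplified it for 40 cycles. They deposited raw Ct values, a score in cycles, for 3 replicates per genotype, under 1 record per genotype, and a normalized ratio for each gene in each genotype, which is 2 raised to −ΔCt. The deposited ratio was matched from the Ct values with *hprt1*, *nono* and *rpl13a* to within 4.00e-07 on the log2 scale. A deposited column of fold changes between the genotypes was not used. Threshold and baseline settings are not given in the sources used here.

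Genotypes were compared on −ΔCt with limma 3.58.1 (lmFit, eBayes) in R 4.3.3 (two-sided), p was adjusted by Benjamini-Hochberg over 84 pathway genes, and the threshold was 0.05. Single values were also compared with an exact permutation test. Ratios to *rps6ka2* were fitted in the same way over the other 83 genes. The script was tested on simulated data. Nothing says how far the pools of a genotype were independent, and p-values measure only the spread between them. The 6 Ct columns were grouped by the genotype and number in their header, and no pair held identical values. The alternatives were 11 other normalizations, each replicate left out, a replicate block, eBayes with trend and robust options, the permutation test and ratios of linear means.

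The genes named are the 4 members, the reference genes, the 3 closest profiles to *rps6ka2* and to *rps6*, and, of the related genes, those past the threshold and those listed upstream of S6K. LOC565173, the pairs among the other genes, the genes next to *rps6ka2* in mean Ct, and the exceptions *akt2l*, *ddit4* and *rragd* were added after the values were seen. The genes upstream of RSK are not reported here. Members and lists were chosen with earlier results of these data known. The deposited accessions of 75 of the 89 genes matched the RefSeq table of GRCz12tu, used for names only.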

Additional observations from a re-analysis of the deposited data

How the results depend on the processing

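With 3 pools per genotype and 1 primer pair per gene, changes as small as those of *rps6kb1b* and *rps6ka1* are at the limit of what the array resolves, and the exact permutation test cannot go below p = 0.1. That exact test left *rps6ka2* (−1.26) and its ratios to *rps6ka1* (−1.44), *rps6* (−1.27) and *rps6kb1b* (−0.93) short of the threshold, each at p = 0.1.

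With *acta1b* alone the log2 fold change of *rps6ka2* was −0.25, and it missed the threshold. The value of *rps6* was −0.20 with *nono* alone, and it passed as higher with *b2m* alone (0.47) and *acta1b* alone (1.0). The value of *rps6ka1* was −0.025 with *nono* alone, and that of *rps6kb1b* was 0.14 with *b2m* alone and 0.68 with *acta1b* alone. LOC565173, at 0.00, turned positive with all 5 reference genes (0.29), the 4 without *acta1b* (0.12), *hprt1* and *rpl13a* (0.10), *hprt1* alone (0.11), *rpl13a* alone (0.10), *b2m* alone (0.46), *acta1b* alone (1.0), the mean (0.24) or median (0.14) of the pathway genes and raw Ct (0.30), and passed as higher with *b2m* alone, with *acta1b* alone and on raw Ct. By construction another reference shifts all genes by one amount, and with *nono*, *b2m* or *acta1b* alone limma gave all genes 1 standard error, so those p-values may be too small.

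The counts of lower and higher pathway genes, 16 and 3, became 7 and 19 with all 5 reference genes, 10 and 5 without *acta1b*, 10 and 4 with *hprt1* and *rpl13a* or with *hprt1* alone, 10 and 5 with *rpl13a* alone, 29 and 1 with *nono* alone, 5 and 39 with *b2m* alone, 3 and 55 with *acta1b* alone, 9 and 18 against the mean of the pathway genes, 9 and 7 against their median, and 7 and 21 on raw Ct. The median log2 fold change moved most with *acta1b* alone, by 1.0.

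With each replicate left out in turn, 10 to 15 genes were lower and 0 to 4 higher, with 0 higher without WT replicate 3. The value of *rps6ka2* then lay between −1.37 and −1.07, that of *rps6* between −0.080 and 0.10, that of *rps6ka1* between 0.14 and 0.22, that of *rps6kb1b* between −0.45 and −0.21 and that of LOC565173 between −0.10 and 0.076. The ratio of *rps6ka2* ranged from −1.54 to −1.27 against *rps6ka1*, −1.46 to −0.99 against *rps6* and −1.15 to −0.62 against *rps6kb1b*, past the threshold each time, and *rps6ka1* over *rps6kb1b* from 0.38 to 0.65. The numbers of the replicates are not stated to pair them, and same-numbered pools correlated at −0.22, 0.09 and −0.05 in their deviations from the group means. With the replicate number as a block, *rps6ka2* remained at −1.26 (adjusted p = 4.77e-12, limma, again with 1 standard error for all genes), 14 genes were lower and 2 higher, and 0 calls of the 4 genes or their ratios changed.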
